A study of Homo sapiens with 12 samples.

Results

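The S100 calcium-binding protein genes described here are 10 genes, S100A2, S100A4, S100A6, S100A8, S100A9, S100A10, S100A11, S100A14, S100A16 and S100P, chosen by gene symbol from the 28747 Ensembl identifiers of the count table. All 10 have a row in the table. The rule uses no measured value, but the list was drawn up with earlier results of these data known. They were followed in 12 RNA-seq libraries of DU145, an established human prostate cancer line that grows without androgen, with 3 replicates in each of 4 groups. Control cells (shCtrl) and cells depleted of the σ1 receptor (σ1R) by a short hairpin RNA (shSigma) were each grown as bulk adherent cultures and as tumor spheres. Tumor spheres are colonies that grow from single cells without attachment in serum-free medium with added growth factors, and the study used them to enrich stem-like cells. All 4 groups carried a stably integrated lentiviral hairpin, so no group was of unmodified cells. The study describes a pair of hairpins against σ1R, and the labels do not say which of them the sequenced cells carried. An effect of σ1R loss and an effect of that hairpin or of that selected line cannot be told apart here. The replicates were described as independent, but whether they came from separate transductions was not given, so p-values measure only the spread between these libraries.

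The libraries held 16472722 to 26957777 counts, and the 5 epithelial markers KRT8, KRT18, KRT19, EPCAM and CDH1 were above 1 CPM (counts scaled to library size with TMM factors) in the mean of every group. KLK2 and KLK3, genes of androgen-responsive prostate cells, were between 0 and 0.0964 CPM in every library. In the adherent groups, shCtrl replicate 1 and shSigma replicate 3 stood apart from the other adherent libraries along a shared axis, with a correlation of 0.71 between their deviations from the group means. Counts of changed S100 genes are therefore given with and without these 2 libraries.

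S100 proteins are small EF-hand proteins that mostly act as dimers. Calcium binding opens a hydrophobic surface through which they hold partners such as annexins, non-muscle myosin, p53 or IQGAP1, and several are also released and act on surface receptors such as RAGE and TLR4. They are expressed in patterns typical of each cell type, with some members abundant in most epithelia, others in squamous epithelium, and S100A8 and S100A9 chiefly in neutrophils and monocytes.

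Of the 10 genes, 9 lie on chromosome 1 within 1634.1 kb in the GENCODE annotation of GRCh38, and S100P lies alone on chromosome 4 (chr4:6693878-6697170, plus strand). S100A10 (chr1:151982915-151993859) and S100A11 (chr1:152032506-152047907) form one end of the chromosome 1 group. S100A9 (chr1:153357854-153361023) and S100A8 (chr1:153390032-153391073) follow. S100A6 (chr1:153534599-153536244), S100A4 (chr1:153543613-153550136), S100A2 (chr1:153561108-153567890), S100A16 (chr1:153606886-153613145) and S100A14 (chr1:153614255-153616986) lie within 82.4 kb. All of the chromosome 1 members are on the minus strand except S100A9. S100A4 encloses the related gene S100A3 on the same strand, and S100A6 and S100A11 each overlap a gene on the opposite strand. The use of strand in counting was not given, which affects S100A6 and S100A11. How reads shared by S100A4 and S100A3 were assigned was not given either. The counts of these 3 members are therefore less certain than those of the other 7.

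Sequence upstream of the start site is shown for the genes that differed most between groups, S100A2, S100A9 and S100A14, for S100A4, which moved the other way, and for S100A10, which changed in opposite directions in the cultures. The windows of 250 bases end at the RefSeq start site (GRCh38.p14) and are written 5′ to 3′ on the strand of the gene. They lie at chr1:153565845-153566094 (S100A2, minus), chr1:153545807-153546056 (S100A4, minus), chr1:153357604-153357853 (S100A9, plus) and chr1:151993860-151994109 (S100A10, minus). For S100A14 only the 220 bases at chr1:153616356-153616575 (minus) are shown, because the rest of its window overlaps an exon of another annotated transcript. The S100A2 and S100A4 windows lie in introns of longer annotated transcripts, and those of S100A9 and S100A10 lie outside the annotated gene. Capitals mark matches on either strand to 4 motifs, namely an AP-1 site (TGANTCA), an E-box (CAGGTG), a GC box (GGGCGG) and a TATA box (TATAAA).
S100A2: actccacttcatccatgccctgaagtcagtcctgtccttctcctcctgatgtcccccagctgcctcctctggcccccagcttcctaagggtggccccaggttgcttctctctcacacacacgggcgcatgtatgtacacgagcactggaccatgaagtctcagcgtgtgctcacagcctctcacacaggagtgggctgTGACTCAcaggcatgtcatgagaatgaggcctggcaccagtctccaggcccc
S100A4: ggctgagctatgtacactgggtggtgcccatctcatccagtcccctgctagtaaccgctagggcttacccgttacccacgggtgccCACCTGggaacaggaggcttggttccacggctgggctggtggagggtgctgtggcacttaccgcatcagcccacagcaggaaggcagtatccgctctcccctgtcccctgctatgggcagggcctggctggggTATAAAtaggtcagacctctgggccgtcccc
S100A9: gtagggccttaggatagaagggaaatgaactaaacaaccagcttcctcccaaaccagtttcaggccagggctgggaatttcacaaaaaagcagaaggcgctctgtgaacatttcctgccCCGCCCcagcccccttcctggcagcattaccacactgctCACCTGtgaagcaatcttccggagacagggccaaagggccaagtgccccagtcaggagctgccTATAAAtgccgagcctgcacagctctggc
S100A10: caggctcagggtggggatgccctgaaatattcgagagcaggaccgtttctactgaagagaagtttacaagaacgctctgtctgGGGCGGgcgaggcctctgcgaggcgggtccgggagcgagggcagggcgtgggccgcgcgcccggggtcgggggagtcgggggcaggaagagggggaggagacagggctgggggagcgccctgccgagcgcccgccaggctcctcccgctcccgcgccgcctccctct
S100A14: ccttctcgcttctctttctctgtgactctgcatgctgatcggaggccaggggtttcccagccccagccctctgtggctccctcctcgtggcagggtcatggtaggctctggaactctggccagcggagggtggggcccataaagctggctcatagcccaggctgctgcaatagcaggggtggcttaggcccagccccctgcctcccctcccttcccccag

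An upstream window was found for 9 of the 10 genes. The AP-1 letters occurred in 1 of them, that of S100A2, beginning 52 bases before the start, and in 6.59% of all 34943 windows in the RefSeq table. The TATA letters occurred in 3 (S100A4, S100A9 and S100P) against 10.8% of all windows. In each of these they began 28 to 31 bases before the start. The E-box letters occurred in 5 (S100A4, S100A9, S100A14, S100A16 and S100P) against 17.5%. In S100A14 they lie next to the start, in the part of its window that is not shown above. The GC box letters occurred in 4 (S100A6, S100A9, S100A10 and S100A11) against 42.5%. The windows of S100A6 and S100A10 each held 24 CpG dinucleotides and that of S100A11 held 15, where the median window held 11. The other 6 held 1 to 7. The windows with the most CpG were those of 3 of the 4 abundant genes, and the fourth abundant gene, S100A16, had 1 CpG. These matches describe letters in the window and are not evidence of binding.

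The 10 genes covered a wide range of levels, and their order was compared per kilobase of the canonical transcript because counts grow with transcript length. In adherent shCtrl cells S100A6 stood first at 712 ± 46.5 CPM per kb (SD, n = 3). S100A11 followed at 271 ± 31.4, S100A10 at 147 ± 16.1 and S100A16 at 132 ± 12.7 CPM per kb, and the last pair did not differ beyond their spread. S100A2 (7.65 ± 1.01) and S100A4 (4.61 ± 0.42) were far lower, and S100A14 (0.38 ± 0.15), S100P (0.16 ± 0.16) and S100A9 (0.14 ± 0.066) were near the limit of detection. S100A6 alone made up 55.8% to 60.5% of the summed S100 level per kb in the means of the 4 groups. In tumor spheres of shCtrl cells the order was S100A6, then S100A10 and S100A11 at 287 ± 32.3 and 285 ± 18.7 CPM per kb, which did not differ beyond their spread. S100A2 reached 28.6 ± 2.47, and S100A4, S100A9 and S100A14 lay together at 10.5 ± 1.48, 8.64 ± 1.54 and 8.54 ± 1.49 CPM per kb. The summed level of the 10 genes was 695 to 743 CPM in adherent shCtrl, 779 to 853 in adherent shSigma, 963 to 1119 in sphere shCtrl and 793 to 909.7 in sphere shSigma libraries. The sphere shCtrl libraries were thus the highest of the 4 groups and did not overlap with any other.

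**Figure D1:**
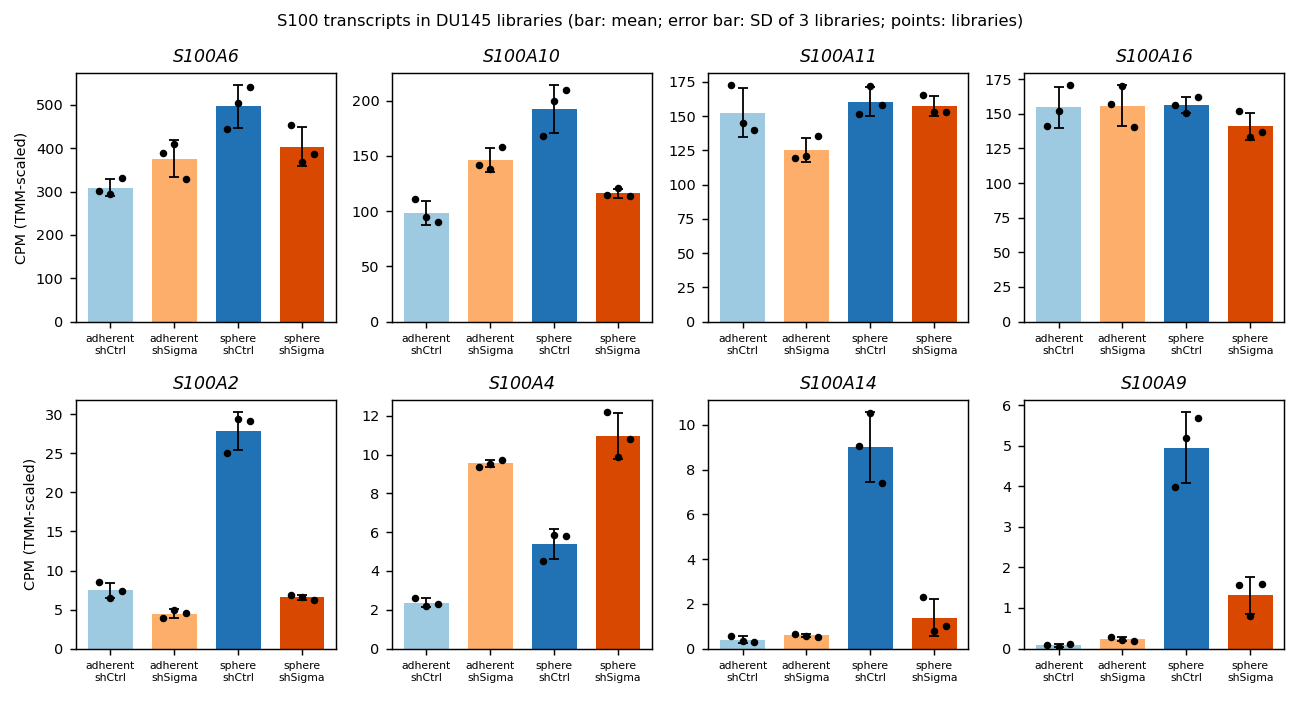
TMM-scaled CPM (y axis, linear, from 0) of the 8 S100 genes above the detection limit in the 4 groups; bars are means, error bars SD of 3 libraries and points single libraries. S100A2, S100A9 and S100A14 stand highest in sphere shCtrl cells (means of 27.9, 4.95 and 9.01 CPM), S100A4 is higher in both shSigma groups, and S100A16 stays between 133 and 171 CPM throughout.

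The first question was which S100 genes differed between shSigma and shCtrl cells within each culture. In adherent cells S100A4 and S100A10 were higher and S100A2 and S100A11 lower in shSigma cells. In tumor spheres S100A4 was again higher, while S100A2, S100A9, S100A10 and S100A14 were lower and S100A6 and S100A16 slightly lower. A gene was called changed at an adjusted p under 0.05 (edgeR's quasi-likelihood test, Benjamini-Hochberg adjustment over all genes tested). In adherent cells 7 of the 10 genes had enough counts to be tested, and 4 were called, 2 higher and 2 lower, where 50.0% of all tested genes were called (22.3% higher, 27.7% lower). Without the 2 adherent libraries that stood apart, 5 were called, and the share of all genes rose to 58.1%. In tumor spheres 8 were tested and 7 called, 1 higher and 6 lower, where 61.1% of all genes were called (30.2% higher, 30.9% lower). One of the called genes in adherent cells and 4 in spheres also had an absolute log2 fold change over 1, against 13.7% and 13.1% of all genes. The shSigma and shCtrl libraries did not overlap for 4 S100 genes in adherent cells and 5 in spheres, against 57.9% and 66.8% of all genes. The median log2 fold change was 0.23 over the tested S100 genes and -0.014 over all genes in adherent cells, and -0.52 against 0.0015 in spheres. These counts and medians are descriptions and cover the tested genes only. They include S100A14 in adherent cells, which had enough counts there only through the shSigma libraries. In bulk libraries, fewer cells with a transcript and less of it per cell cannot be told apart.

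S100A4, a metastasis-associated protein that binds non-muscle myosin heavy chain and is common in mesenchymal cells, was higher in shSigma cells of both cultures. In adherent cells it was at 2.61, 2.20 and 2.29 CPM in the shCtrl libraries and at 9.38, 9.52 and 9.74 CPM in the shSigma libraries. In tumor spheres the values were 4.51, 5.85 and 5.79 CPM in shCtrl and 12.2, 9.85 and 10.8 CPM in shSigma libraries. Every shSigma library was above every shCtrl library of both cultures, with little spread in adherent cells. The increase was 3.85-fold in adherent cells (log2 fold change 1.95, SE 0.13, adjusted p = 3.19e-05) and 2.02-fold in spheres (1.02, SE 0.13, adjusted p = 4.27e-05). S100A3, which lies within the span of S100A4, was also higher, with log2 fold changes of 1.34 (adjusted p = 0.0146) and 1.39 (adjusted p = 5.26e-04). In adherent cells S100A3 had enough counts for the test only through the shSigma libraries, so its direction there was fixed by the count filter. Its mean level rose from 0.40 to 1.07 CPM in adherent cells and from 0.67 to 1.77 CPM in spheres, and how many of its reads were shared with S100A4 was not tested.

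S100A2, a mostly nuclear protein of basal and squamous epithelium that binds p53, was lower in shSigma cells of both cultures. Adherent shCtrl libraries held 8.48, 6.51 and 7.41 CPM and adherent shSigma libraries 3.86, 4.97 and 4.58 CPM. Sphere shCtrl libraries held 25.1, 29.4 and 29.2 CPM and sphere shSigma libraries 6.90, 6.57 and 6.20 CPM. The sphere groups were far apart, and the shSigma spheres overlapped with the adherent shCtrl cells. S100A2 was 1.75-fold lower in adherent cells (log2 fold change -0.81, SE 0.16, adjusted p = 0.00438) and 4.26-fold lower in spheres (-2.09, SE 0.10, adjusted p = 1.10e-08).

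S100A14, an epithelial member of the family, was low in adherent cells and lower in shSigma than in shCtrl spheres. The adherent libraries held 0.58, 0.34 and 0.28 CPM with shCtrl and 0.67, 0.56 and 0.53 CPM with shSigma, which is 7 to 15 counts per library, and these groups overlapped. Sphere shCtrl libraries held 9.07, 10.5 and 7.41 CPM and sphere shSigma libraries 2.32, 0.79 and 1.01 CPM. All 3 shSigma spheres were below all 3 shCtrl spheres, and among them replicate 1 was well above the others. The decrease in spheres was 6.47-fold (log2 fold change -2.69, SE 0.30, adjusted p = 4.04e-05), and in adherent cells the value was 0.49 (SE 0.37, adjusted p = 0.305). In adherent cells S100A14 had enough counts for the test only through the shSigma libraries, so the count filter favoured a higher value there. In spheres 4 of the 5 epithelial markers were also lower in shSigma cells. The sum of the 5 was 2284 to 2348 CPM with shCtrl and 896 to 954 CPM with shSigma. CDH1, which encodes E-cadherin, went from 726 ± 46.3 to 27.8 ± 3.34 CPM in the same libraries. The log2 fold changes in spheres were -4.71 for CDH1, -3.31 for EPCAM, -0.44 for KRT18, -0.21 for KRT8 and 0.13 for KRT19. In adherent cells, where S100A14 did not pass, EPCAM (-2.99) and CDH1 (-1.23) were lower and KRT8 (0.76), KRT18 (0.58) and KRT19 (1.91) higher. The part of these markers' change in that of S100A14 was not tested.

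S100A9, which pairs with S100A8 in the antimicrobial complex calprotectin, was detected mostly in tumor spheres. The adherent libraries held 2, 1 and 3 counts with shCtrl and 6, 4 and 4 with shSigma. Sphere shCtrl libraries held 68, 94 and 113 counts (3.98, 5.19 and 5.69 CPM) and sphere shSigma libraries 31, 15 and 30 counts (1.56, 0.79 and 1.59 CPM). The sphere groups did not overlap, and each sphere library exceeded each adherent one. S100A9 was 3.77-fold lower in shSigma than in shCtrl spheres (log2 fold change -1.91, SE 0.24, adjusted p = 2.52e-05). It was not tested in adherent cells, where 14 counts in all against 6 gave a ratio of 2.86 (95% interval 1.03 to 9.07, exact binomial and for counting error only). S100A8 had 1 count in all 12 libraries, and at 3 counts per library a level up to 0.115 to 0.176 CPM would have gone undetected. S100A9 was thus counted without detectable transcript of its usual partner. The 10 myeloid markers, genes of white blood cells, summed to 2.00 to 2.92 CPM in adherent shCtrl, 0.92 to 1.43 in adherent shSigma, 3.31 to 4.79 in sphere shCtrl and 1.61 to 2.17 in sphere shSigma libraries. The neutrophil genes MPO and ELANE and the monocyte gene FCN1 were at 0 counts in every library. CSF3R, also a neutrophil gene, was at 0.014 and 0 CPM in adherent shCtrl and shSigma cells, 0.47 in sphere shCtrl and 0.23 in sphere shSigma cells, with at most 11 counts in a library. Of the list, 2 genes, CD14 and CSF1R, were lower in shSigma than in shCtrl spheres (log2 fold changes -1.93 and -2.85, adjusted p = 5.06e-04 and 8.08e-05). Both had enough counts for this test only through the shCtrl spheres, so their direction was fixed by the count filter. Their part in the S100A9 difference was not tested.

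S100P, which binds ezrin and IQGAP1 and is common in several carcinomas, was at the limit of detection. It had 15 counts in all, at most 4 in a library, in 9 of the 12 libraries. In adherent cells 2 counts with shSigma against 6 with shCtrl gave a ratio of 0.41 (95% interval 0.040 to 2.28), so no difference was detectable at this depth.

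S100A10, whose own calcium sites are inactive and which forms a tetramer with annexin A2 at the plasma membrane, changed in opposite directions in the cultures. Adherent shCtrl libraries held 111, 94.9 and 90.1 CPM and adherent shSigma libraries 142, 138 and 158 CPM. Sphere shCtrl libraries held 168, 199.6 and 209.7 CPM and sphere shSigma libraries 114, 121 and 113 CPM. Neither pair of groups overlapped, with shSigma above shCtrl in adherent cells and below it in spheres. The gene was 1.41-fold higher in adherent shSigma cells (log2 fold change 0.50, SE 0.097, adjusted p = 0.00408) and 1.66-fold lower in shSigma spheres (-0.73, SE 0.077, adjusted p = 9.16e-06). ANXA2, the gene for its partner annexin A2, was at 0.12 in adherent cells (adjusted p = 0.396) and lower in spheres (-0.46, adjusted p = 8.12e-05).

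S100A6, known as calcyclin, was the most abundant member, and its differences were small. Adherent libraries held 301, 294 and 332 CPM with shCtrl and 389.5, 409.6 and 329 CPM with shSigma. Spheres held 444, 505 and 541 CPM with shCtrl and 455, 368 and 388 CPM with shSigma. In each culture 1 library crossed into the range of the other group, shSigma replicate 3 in adherent cells and shSigma replicate 1 in spheres. The log2 fold change was 0.23 (SE 0.11, adjusted p = 0.121) in adherent cells and -0.30 (SE 0.091, adjusted p = 0.0149) in spheres. Both results depended on single libraries. Without adherent shSigma replicate 3 the adherent value was 0.34 (adjusted p = 0.0085), and without sphere shCtrl replicate 2, shCtrl replicate 3 or shSigma replicate 2 the sphere values were -0.30, -0.23 and -0.24 (adjusted p = 0.0616, 0.0682 and 0.0590).

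S100A11, a partner of annexin A1, was at 173, 145 and 139.7 CPM in adherent shCtrl and 119.6, 121 and 135 CPM in adherent shSigma libraries. In spheres it was at 151, 172 and 158 CPM with shCtrl and 166, 153 and 153 CPM with shSigma. The adherent groups lay side by side without overlap and the sphere groups overlapped. The log2 fold change was -0.35 (SE 0.099, adjusted p = 0.0209) in adherent cells and -0.033 (SE 0.059, adjusted p = 0.642) in spheres. The adherent call was lost without shCtrl replicate 1 (-0.19, adjusted p = 0.115), shCtrl replicate 2 (-0.32, adjusted p = 0.0749), shSigma replicate 1 (-0.25, adjusted p = 0.148) or shSigma replicate 2 (-0.26, adjusted p = 0.123).

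S100A16, a broadly expressed member, was the most even of the family. It was at 141, 152 and 171 CPM in adherent shCtrl, 157, 169.8 and 141 CPM in adherent shSigma, 157, 151 and 162 CPM in sphere shCtrl and 152, 133 and 137 CPM in sphere shSigma libraries. The groups overlapped in both cultures. The log2 fold change was -0.046 (SE 0.10, adjusted p = 0.735) in adherent cells and -0.16 (SE 0.061, adjusted p = 0.0435) in spheres. The sphere call was lost without shCtrl replicate 1 or 3 (-0.15 and -0.12, adjusted p = 0.0821 and 0.170) and without shSigma replicate 2 or 3 (-0.12 and -0.13, adjusted p = 0.181 and 0.153).

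The second comparison asked how the S100 genes differed between tumor spheres and adherent cells of the same line. It used the same libraries as the first and is therefore not independent of it. In shCtrl cells 6 of 8 tested genes were higher in spheres and the other pair did not pass, where 53.7% of all genes were called (27.4% higher, 26.3% lower). In shSigma cells 3 of 8 were higher and 1 lower, where 47.1% were called (21.9% higher, 25.2% lower). The median log2 fold change was 1.07 in shCtrl and 0.29 in shSigma cells over the tested S100 genes, beside 0.037 and 0.0025 over all genes. An absolute log2 fold change over 1 was reached by 4 of the called genes in shCtrl cells and 1 in shSigma cells, against 15.8% and 9.32% of all genes. Without the 2 adherent libraries that stood apart, 6 and 5 genes were called, beside 54.4% and 56.2% of all genes. S100A9 and S100A14 had enough counts for these tests only through the spheres, in both lines. Their direction was fixed by the filter, or favoured by it for S100A14 in shSigma cells, and the counts and medians are descriptions.

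Markers of other kinds moved between the cultures too. In shCtrl cells all 5 epithelial markers were higher in spheres, with a sum of 878 to 964 CPM in adherent and 2284 to 2348 CPM in sphere libraries, and CDH1 went from 26.8 to 726 CPM in the mean. In shSigma cells 2 of the 5 were higher and 1 lower, with a sum of 1140 to 1452 CPM in adherent and 896 to 954 CPM in sphere libraries. The 7 markers of stroma and endothelium summed to 4.88 to 10.1 CPM in adherent shCtrl, 4.29 to 6.71 in adherent shSigma, 21.1 to 26.9 in sphere shCtrl and 10.5 to 14.8 in sphere shSigma libraries. Most of that sum was COL1A1 (22.6 CPM in sphere shCtrl cells), while COL1A2 was at 1.70 and 1.55 CPM in adherent and sphere shCtrl cells and LUM was at 0 in every library. The part of these markers in the S100 differences was not tested.

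In shCtrl cells S100A14 rose from 0.40 ± 0.16 to 9.01 ± 1.57 CPM between adherent cells and spheres (22.2-fold, log2 fold change 4.47, adjusted p = 7.15e-06). S100A9 went from 6 counts in all to 275, a ratio of 62.5 with a 95% counting interval of 28.3 to 172 (fitted log2 fold change 5.86, adjusted p = 5.06e-06). S100A2 rose 3.73-fold (1.90, adjusted p = 1.28e-05), S100A4 2.27-fold (1.18, adjusted p = 5.70e-04), S100A10 1.95-fold (0.96, adjusted p = 2.15e-04) and S100A6 1.61-fold (0.68, adjusted p = 4.00e-04). All 6 were separated by culture without overlap, as were 62.7% of all tested genes. S100A11 and S100A16 had log2 fold changes of 0.072 (adjusted p = 0.529) and 0.015 (adjusted p = 0.883).

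In shSigma cells S100A9 was 5.73-fold higher in spheres (log2 fold change 2.52, adjusted p = 0.00185), and S100A2 (0.58, adjusted p = 0.00853) and S100A11 (0.35, adjusted p = 0.00166) were also higher. S100A10 was 1.24-fold lower in shSigma spheres (-0.31, adjusted p = 0.00312), the reverse of its direction in shCtrl cells. S100A14 was at 1.25 (SE 0.45, adjusted p = 0.0539). It passed the threshold without sphere shSigma replicate 2 (1.53, adjusted p = 0.0363). S100A4 (0.22, adjusted p = 0.118), S100A6 (0.12, adjusted p = 0.444) and S100A16 (-0.13, adjusted p = 0.291) did not pass. In shSigma cells 6 S100 genes did not overlap between the cultures, against 60.8% of all genes. S100A16 passed the test without adherent shSigma replicate 3 (-0.21, adjusted p = 0.00508).

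Whether the knockdown response differed between the cultures was then tested directly, with a hairpin-by-culture interaction term fitted to all 12 libraries. Of 8 tested genes, 6 passed, all with a lower value in spheres than in adherent cells, where 28.4% of all tested genes passed (15.6% with a lower and 12.7% with a higher value). An absolute interaction over 1 was reached by 4 of them, against 8.54% of all genes. Without the 2 adherent libraries that stood apart the count was also 6, beside 34.4% of all genes. The interaction was -1.34 for S100A2 (SE 0.18, adjusted p = 9.42e-05), for which the decrease was larger in spheres, and -0.99 for S100A4 (SE 0.19, adjusted p = 0.00142), for which the increase was smaller. For S100A10 it was -1.30 (SE 0.13, adjusted p = 8.94e-06), with changes of opposite sign. For S100A14 it was -3.25 (SE 0.58, adjusted p = 0.00106) and for S100A9 -3.36 (SE 0.69, adjusted p = 0.00234), the latter resting on 6 and 14 counts in the adherent groups. S100A9 had enough counts for this test only through the spheres. S100A6 had -0.58 (SE 0.15, adjusted p = 0.00816), a call that was lost without adherent shCtrl replicate 1 (-0.51, adjusted p = 0.0595). S100A11 (0.25, adjusted p = 0.137) and S100A16 (-0.16, adjusted p = 0.353) did not pass, and S100A11 passed without adherent shCtrl replicate 3 (0.36, adjusted p = 0.0381) or shSigma replicate 3 (0.38, adjusted p = 0.0266). All 5 epithelial markers also passed with a lower value in spheres, among them CDH1 with -3.55 (adjusted p = 1.73e-09), and their part in the S100 values was not tested.

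Neighbouring S100 genes moved in different directions after knockdown. S100A4 and S100A2, adjacent among the members, went up and down in both cultures, and S100A16 and S100A14, likewise adjacent, had sphere values of -0.16 and -2.69. CHTOP, the nearest tested gene beyond the S100 genes on the side of S100A14, was at -0.071 in adherent cells (adjusted p = 0.345) and higher by 0.22 on the log2 scale in spheres (adjusted p = 0.0039). Other flanking genes changed strongly. TCHH, the hair follicle gene 58.4 kb from S100A11, was at 0.46 in adherent cells (adjusted p = 0.351) and 2.26 in spheres (adjusted p = 1.34e-04). On the other side of S100A6 the nearest tested gene outside the family in adherent cells was IVL, 623 kb away. It was higher there (fitted value 6.27, adjusted p = 8.02e-05, from 92 counts against 1). IVL passed the count filter only through the shSigma libraries, so this direction was fixed. In spheres that place was taken by FLG-AS1, 1089 kb away, at 0.54 (adjusted p = 0.00999). Over the 40 tested genes nearest to each member the median change was 0.13 to 0.18 in adherent cells and 0.018 to 0.18 in spheres, depending on the member. After this regional median was subtracted the counts stood at 4 of 7 and 7 of 8 called, with 45.8% and 56.3% of all genes called in the same way. Among the other S100 genes, 3 of 10 were tested in any comparison. S100A13, a copper-binding member involved in the release of FGF1, was at -0.24 in adherent cells (adjusted p = 0.0900) and -0.59 in spheres (adjusted p = 9.98e-05). S100A1, which overlaps S100A13 on the opposite strand, was at -0.46 in spheres (adjusted p = 0.277). S100A1 had enough counts for this test only through the shCtrl spheres, so the count filter favoured a lower value. The remaining 7, among them S100A7, S100A12 and S100B, did not have enough counts for a test.

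Genes for proteins that S100 proteins bind were taken from a fixed list of 16 intracellular partners. Of these, 14 were tested in each culture, with 4 higher and 3 lower in adherent shSigma cells and 9 higher and 2 lower in shSigma spheres. Of all tested genes 50.0% were called in adherent cells (22.3% higher, 27.7% lower) and 61.1% in spheres (30.2% higher, 30.9% lower). The median log2 fold change of the list was 0.10 in adherent cells and 0.27 in spheres, beside -0.014 and 0.0015 over all genes. IQGAP1, a scaffold protein bound by S100P and S100B, showed the largest change of the list in both cultures, from 233 ± 5.83 to 770.03 ± 83.5 CPM in adherent cells (log2 fold change 1.66, adjusted p = 8.16e-06) and from 171 ± 9.37 to 626 ± 19.4 CPM in spheres (1.87, adjusted p = 3.62e-10). AHNAK, a giant scaffold that binds the S100A10-annexin A2 complex, was higher by 0.98 (adjusted p = 9.01e-05) and 0.82 (adjusted p = 3.02e-05). ANXA11, for the S100A6-binding annexin A11, was higher by 0.95 in adherent cells (adjusted p = 2.18e-05) and by 0.18 in spheres (adjusted p = 0.00703). MYH9, the non-muscle myosin heavy chain bound by S100A4, was at 0.68 in adherent cells (adjusted p = 0.0919) and higher by 0.60 in spheres (adjusted p = 0.00207). The sphere calls of MYH9 and ANXA11 were not kept under all of the alternative settings given below (adjusted p up to 0.239 and 0.0735).

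Of 9 surface receptors of released S100 proteins, 4 were tested. MCAM, an adhesion receptor for S100A8 and S100A9, was lower by far, from 201 ± 26.4 to 23.6 ± 1.73 CPM in adherent cells (log2 fold change -3.15, adjusted p = 4.04e-06) and from 284 ± 24.8 to 40.6 ± 0.98 CPM in spheres (-2.81, adjusted p = 7.08e-11). BSG, which encodes basigin, and ITGB1, which encodes integrin β1, were higher in shSigma spheres (0.44 and 0.39, adjusted p = 0.0121 and 7.68e-05), and their adherent values were 0.34 and 0.23 (adjusted p = 0.533 and 0.0748). Neither sphere call was kept under all of the alternative settings given below, with adjusted p up to 0.315 for BSG and 0.846 for ITGB1. The ITGB1 value in spheres ran down to -0.014 under these settings. NPTN was at -0.19 in adherent cells (adjusted p = 0.0780) and -0.18 in spheres (adjusted p = 0.0120). The list thus held 1 changed gene in adherent cells and 4 in spheres, 2 higher and 2 lower, out of 4 tested, where the shares of all genes were 50.0% and 61.1%. AGER, which encodes RAGE, and TLR4 were among the 5 receptors without enough counts for a test.

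**Figure D2:**
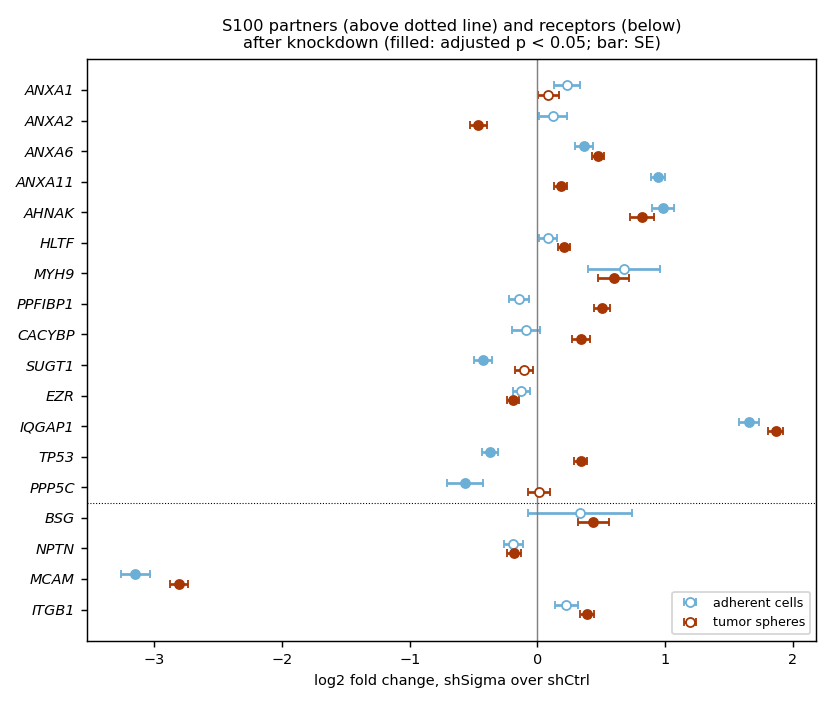
Log2 fold change of shSigma over shCtrl cells (x axis) for the tested genes of intracellular S100 partners (above the dotted line) and surface receptors (below it); bars are SE, and filled points have an adjusted p under 0.05. IQGAP1 stands farthest right (1.66 and 1.87) and MCAM farthest left (-3.15 and -2.81) in both cultures.

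Genes of squamous differentiation, with which S100A2 and several chromosome 1 neighbours are co-expressed in skin, were mostly silent. Of 20 genes, 3 were tested in each knockdown comparison. IVL, which encodes the cornified envelope protein involucrin, had 92 counts in adherent shSigma libraries and 1 in adherent shCtrl libraries, a ratio of 113 with a 95% counting interval of 19.7 to 4498 (edgeR adjusted p = 8.02e-05). In spheres KRT16, a keratin of stressed epidermis, was higher by 1.35 (adjusted p = 0.00164) and CNFN by 0.66 (adjusted p = 0.0077), both on the log2 scale. IVL in adherent cells and KRT16 in spheres had enough counts for the test only through shSigma libraries. Their direction was thus fixed by the count filter. SFN, which encodes an epithelial 14-3-3 protein and had group means of 67.2 to 152 CPM, had values of -0.052 (adjusted p = 0.935) and 0.12 (adjusted p = 0.354).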

How the data were processed

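RNA-seq was made by the authors from adherent and tumor-sphere DU145 cells (directional libraries from 800 ng of total RNA, single-end 75 nt reads), and per the labels reads were aligned with STAR 2.6.1c to GRCh38.p12. The deposited values are raw counts per Ensembl gene, without normalization, in 12 columns, one for each library. Which annotation was counted, whether strand was used and how multi-mapped reads were handled is not given in the sources used here. Symbols and coordinates came from GENCODE release 44 (26153 of 28747 identifiers matched), and upstream windows from a RefSeq table (GRCh38.p14).

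CPM values and log2 fold changes with their p-values were obtained from these counts with edgeR 4.0.16 (TMM, filterByExpr at a minimum count of 10, robust quasi-likelihood test, two-sided, Benjamini-Hochberg over all genes) in R 4.3.3. Each comparison was fitted on its own 6 libraries, and the interaction on all 12. SE is the absolute log2 fold change over the square root of F. CPM used TMM factors of all 12 libraries. Genes with at most 3 counts per library have a ratio of summed counts with an exact 95% interval, which covers counting error only.

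The members and lists were chosen with earlier results of these data known. Named genes are the members, the other tested S100 genes, the 3 genes of each list (partners, receptors, squamous) with the largest absolute log2 fold change among those called in each knockdown comparison, the tested gene next to the members, and the gene most like each member. ANXA2, NPTN, SFN, TCHH and the markers were named for completeness after their values were seen. Alternatives were DESeq2 1.42.0, its size factors, upper-quartile and total-count scaling, other filters, 1 fit of 12 libraries, a fold threshold, subtraction of the regional median, a replicate block and fits leaving out each library in turn. A fit without 2 adherent libraries was added after the data were seen. Some genes under this rule are not reported here. The procedure was tested on simulated counts. Replicates differed by more than counting noise (chi-square per gene 2.73 to 43.9).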

Additional observations from a re-analysis of the deposited data

Results flagged for a closer look

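For 6 of the S100 genes the response to knockdown differed between tumor spheres and adherent cells when the difference itself was tested over all 12 libraries, beside 28.4% of all tested genes. The values, sphere minus adherent log2 fold change, were -1.34 for S100A2, -0.99 for S100A4, -0.58 for S100A6, -3.36 for S100A9, -1.30 for S100A10 and -3.25 for S100A14. The S100A6 call was lost without adherent shCtrl replicate 1 (-0.51, adjusted p = 0.0595), and the S100A9 value rests on 6 and 14 counts in the adherent groups. S100A9 had enough counts for the test only through the spheres.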

How the results depend on the processing

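The counts of S100 genes called stayed within 1.5 times of the reported count under DESeq2, the other scalings, the filters, the fit of 12 libraries and the subtraction of the regional median, where each was run. With an absolute log2 fold change over 1 required as well, they were 1 in adherent cells and 4 in spheres after knockdown and 1 between cultures in shSigma cells. With 1 library left out they were 3 to 5 and 5 to 7 after knockdown, 6 throughout between cultures in shCtrl and 4 to 5 in shSigma cells, and 5 to 7 for the interaction. Same-numbered libraries had correlations of -0.73 to 0.29 between their deviations, and the numbers were not used to pair the samples. With deviations from means of 3 libraries these values cannot settle whether same-numbered samples were handled together. With the replicate block the counts were 3, 6, 6, 5 and 6 in the same order, S100A11 in adherent cells and S100A16 in spheres were lost (adjusted p = 0.0685 and 0.0604), and S100A14 between cultures in shSigma cells was gained (adjusted p = 0.0235). S100A16 in spheres was also lost under DESeq2 (adjusted p = 0.0754) and in the fit of 12 libraries (adjusted p = 0.159), with a range of 6.59e-04 to 0.181 over its alternatives. Of 626 member values under alternatives, 581 kept direction and side of the threshold, 16 lost a call, 13 gained one and 16 changed sign, none of which had been called. The sign changes of S100A16 after knockdown in adherent cells were 0.0059 with upper-quartile scaling, 0.0092 with total counts, 0.011 in the fit of 12 libraries, 4.4e-05 without the 2 adherent libraries, and its values with 1 library left out ran from -0.054 to 0.047. Its sign changes between cultures in shCtrl cells were -0.0056 with DESeq2, -0.0033 with its size factors, -0.0019 without a filter, -0.084 without the 2 adherent libraries and its values with 1 library left out ran from -0.084 to 0.044. S100A11 changed sign without sphere shCtrl replicate 2 after knockdown in spheres and without adherent shCtrl replicate 3 between cultures in shCtrl cells, where its values with 1 library left out ran from -0.068 to 0.013 and from -0.042 to 0.13. The cause of these shifts was not tested. Counts under about 3 per library limit what can be said of S100A8, S100P and, in adherent cells, S100A9.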

Other observations

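For each member the gene outside the family with the most similar profile was sought among 10790 genes with a mean of at least 5 CPM, by Pearson correlation of log2(CPM + 0.5) over the 12 libraries. These are descriptions, since the 12 libraries fall into 4 groups. S100A2 was most like KCNK1, a potassium channel gene (r = 0.994), S100A4 most like IFIT1, an interferon-induced gene (r = 0.990), and S100A9 most like FGL1, for a liver-secreted fibrinogen-like protein (r = 0.987). S100A14 was most like MED9, for a Mediator subunit (r = 0.982), S100A11 most like TRMT6 (r = 0.982) and S100A10 most like WSB1 (r = 0.973). S100A6 was most like ZNF576 (r = 0.958) and S100A16 most like TRIB3 (r = 0.890), the lowest of the 8 values.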
